A study of Homo sapiens with 9 samples.

Results

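The nuclear-encoded subunits of the respiratory chain were examined in HCT116 cells, a human colon carcinoma line, with RNF40 or TG2 depleted. Members were the protein-coding rows on a primary chromosome whose symbols begin with NDUFA, NDUFB, NDUFC, NDUFS or NDUFV and a digit, are SDHA to SDHD, or begin with UQCR, with COX4 to COX8 and a letter, or with ATP5 and a letter. The row with the highest mean was kept for each symbol, which left 89 genes of the 63677 in the table, 39 named for complex I, 4 for complex II, 8 for complex III, 18 for complex IV and 20 for complex V. The siRNF40 group holds 3 libraries of cells given siRNA (small interfering RNA) against RNF40, a subunit of the ligase that puts ubiquitin on histone H2B. The siTG2 group holds 3 libraries of cells given siRNA against TGM2, the gene of transglutaminase 2 (TG2), an enzyme that the series title ties to serotonylation of histone H3 at glutamine. The siControl group holds 3 libraries of cells given control siRNA. All cells are labelled wild type, were transfected with the same lipid reagent and were collected 48 h later, and polyadenylated RNA was sequenced. The labels name a single cell line and do not say whether the 3 libraries of a group came from separate cultures, so p-values measure the spread between these libraries.

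The respiratory chain passes electrons from NADH (complex I) and succinate (complex II) through ubiquinone, complex III and cytochrome c to oxygen at complex IV, and complex V, the ATP synthase, uses the proton gradient built on the way. Most subunits are encoded in the nucleus and imported into mitochondria, and they must assemble with a few core subunits that the mitochondrial genome encodes. The factors NRF1 and GABP (an ETS family factor), YY1, and coactivators of the PGC-1 family with ESRRA are known to act on promoters of many of these genes.

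Levels are normalized read counts, which the authors made by dividing reads per gene by a size factor for each library. Reads assigned to genes numbered 30632268 to 35743918 in siRNF40, 30136581 to 33343878 in siTG2 and 29161285 to 34143599 in siControl libraries. Genes were tested with limma on log2 of the level plus 1 where their mean over the 9 libraries was at least 10, and calls are those with an adjusted p under 0.05 (Benjamini-Hochberg, over all 17663 genes tested). RNF40 had 535, 497 and 528 normalized counts in siRNF40 libraries, against 3004, 2784 and 2565 in siControl libraries (log2 fold change -2.42, limma adjusted p = 5.3e-13). TGM2 had 59.4, 120.5 and 155 normalized counts in siTG2 libraries, against 559, 702 and 554 in siControl libraries (log2 fold change -2.52, limma adjusted p = 1.1e-07). RNF40 itself was also lower in siTG2 libraries, at 2249, 2506 and 2158 (log2 fold change -0.27, limma adjusted p = 0.0192). TGM2 had 839, 830 and 963 in siRNF40 libraries, a difference that missed the threshold (0.54, adjusted p = 0.0633). For the target of either siRNA the exact two-sided permutation test over 3 against 3 libraries gave p = 0.1, the smallest it can give. The 7 colon epithelial markers, EPCAM and keratins among them, summed to 129433 to 156195 normalized counts in siRNF40, 77901 to 89020 in siTG2 and 87273 to 95730 in siControl libraries. Of these 7, 6 had the mean of at least 10 needed for testing. The 4 leukocyte markers summed to at most 19.2 in siRNF40, 22.6 in siTG2 and 12.4 in siControl libraries, with CD3E at 0 in all 9. The 4 fibroblast markers summed to 1370 to 1703 in siRNF40, 1011 to 1160 in siTG2 and 822 to 995 in siControl libraries, with DCN at 0 in all 9. Of these 4, 2 had a mean of at least 10. Red cell, endothelial and striated muscle markers summed to at most 52.8 in any library. The part of these differences in the results below was not tested. In bulk RNA, a change in the number of cells of a kind and a change in RNA per cell cannot be told apart.

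Some libraries stood apart within their group. Over the 81 members tested, siRNF40 replicate 1 was the highest of its group for 47 members (58%), against 31.1% of all tested genes. In the siTG2 group, replicate 2 was the highest for 60 members (74.1%), against 36.7% of all tested genes, and replicate 1 was the lowest for 67 members. In the siControl group, replicate 2 was the highest for 48 members (59.3%), against 35.2% of all tested genes. RN7SL2, an abundant RNA without a poly(A) tail made for the signal recognition particle and chosen after its values were seen, had 7842, 2760 and 2689 normalized counts in siRNF40 replicates 1 to 3, 820, 2317 and 1505 in siTG2 replicates and 1023, 812 and 910 in siControl replicates. The siRNF40 and siTG2 libraries that were highest for most members were also highest for RN7SL2. In siControl, replicate 2 was highest for most members but lowest for RN7SL2. The part of RN7SL2 in the results was not tested. Since some libraries stood apart, counts of called members are also given without them.

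After RNF40 depletion, transcripts of all 5 complexes were mostly higher than in siControl cells. Of the 81 members tested, 54 rose (66.7%) and 4 fell (4.94%) in siRNF40 against siControl, where 21.7% of all tested genes were called higher and 23.6% lower. The median log2 fold change of the members was 0.51, a 1.42-fold level, against 0.02 over all tested genes. The levels of the 3 siRNF40 libraries lay wholly above those of the siControl libraries for 55 members and wholly below for 7, as they did for 26.4% and 26.8% of all tested genes. Without siRNF40 replicate 1, 44 members rose and 3 fell, without siControl replicate 2, 50 rose and 4 fell, and without siControl replicate 3, 48 rose and 2 fell. The authors' deposited table for this comparison has 49 of these members higher and 4 lower at its adjusted p under 0.05.

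Few members were called in siTG2 cells, and most of those were lower than in siControl. Of the 81 members, 3 rose (3.7%) and 14 fell (17.3%) in siTG2 against siControl, where 12.8% of all tested genes were called higher and 18.5% lower, so the share that fell was near that of all genes. The median log2 fold change of the members was -0.14, against -0.01 over all tested genes. Libraries did not overlap for 2 members that were higher and 22 that were lower in siTG2, as for 20.5% and 26.1% of all tested genes, so the count of lower members was near that of all genes. The count of members that fell was 9 without siTG2 replicate 1, 22 without siTG2 replicate 2 and 9 without siControl replicate 2. The count that rose was 1 without siTG2 replicate 3 and 1 without siControl replicate 3. When libraries were scaled to equal totals, which moves the median of all tested genes to 0.13 in siTG2, 5 members fell and 4 rose, and the members' median became 0.0037. Taken relative to the median of all tested genes, the members' median was -0.13 under either scaling. Equal totals shift all genes of a library nearly alike, so this likeness was fixed in advance and shows nothing about the members. The relative median was -0.07 with quantile normalization, -0.05 without siTG2 replicate 1 and -0.22 without siTG2 replicate 2.

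The siRNF40 and siTG2 cells share their controls, so they were also compared with each other. Of the 81 members, 62 were higher (76.5%) and 2 lower (2.47%) in siRNF40 than in siTG2, where 26.6% of all tested genes were called higher and 26.6% lower. The median log2 fold change of members in this contrast was 0.59, against -0.01 over all tested genes. Scaling to equal totals moved the median of all tested genes to -0.19 in this contrast and gave 51 members higher and 5 lower. Without siRNF40 replicate 1 the members' median lay at 0.53, and 57 members were higher and 2 lower. Without siTG2 replicate 1, 54 were higher and 3 lower, and without siTG2 replicate 2, 64 were higher and 2 lower.

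**Figure D1:**
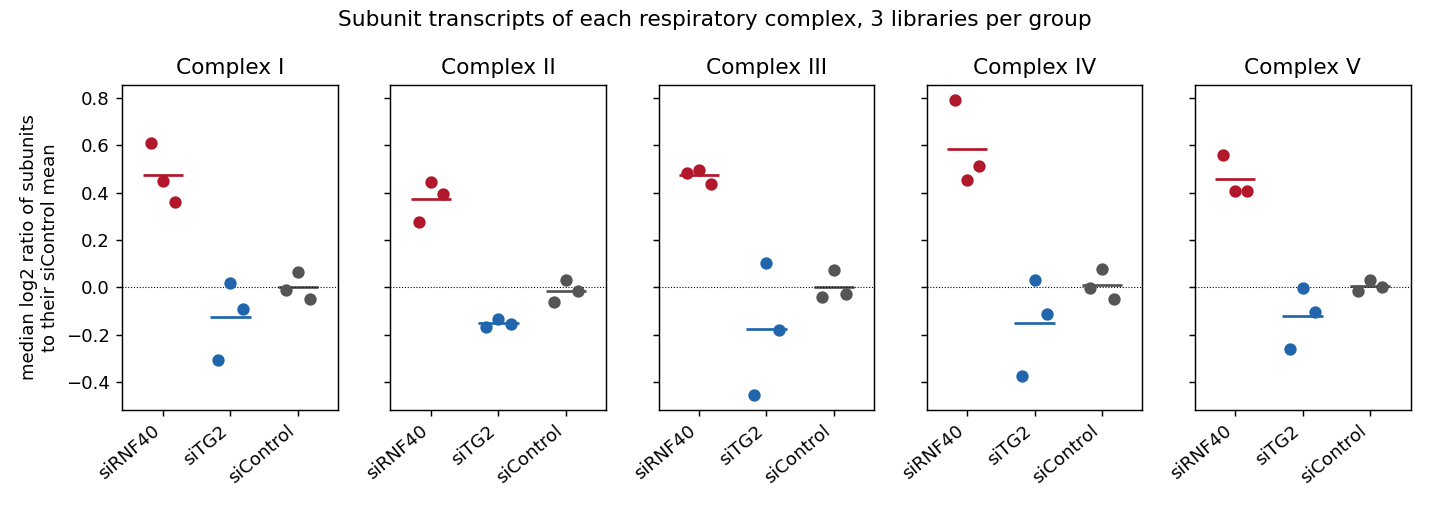
The vertical axis is the median, over the tested subunits of each complex, of the log2 ratio of a library's level to the siControl mean; each point is a library, in the order of replicates 1 to 3, and the line is the mean of 3 libraries. For the 5 complexes the siRNF40 libraries lie between 0.28 and 0.79, and the siTG2 and siControl libraries lie between -0.45 and 0.10.

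**Figure D2:**
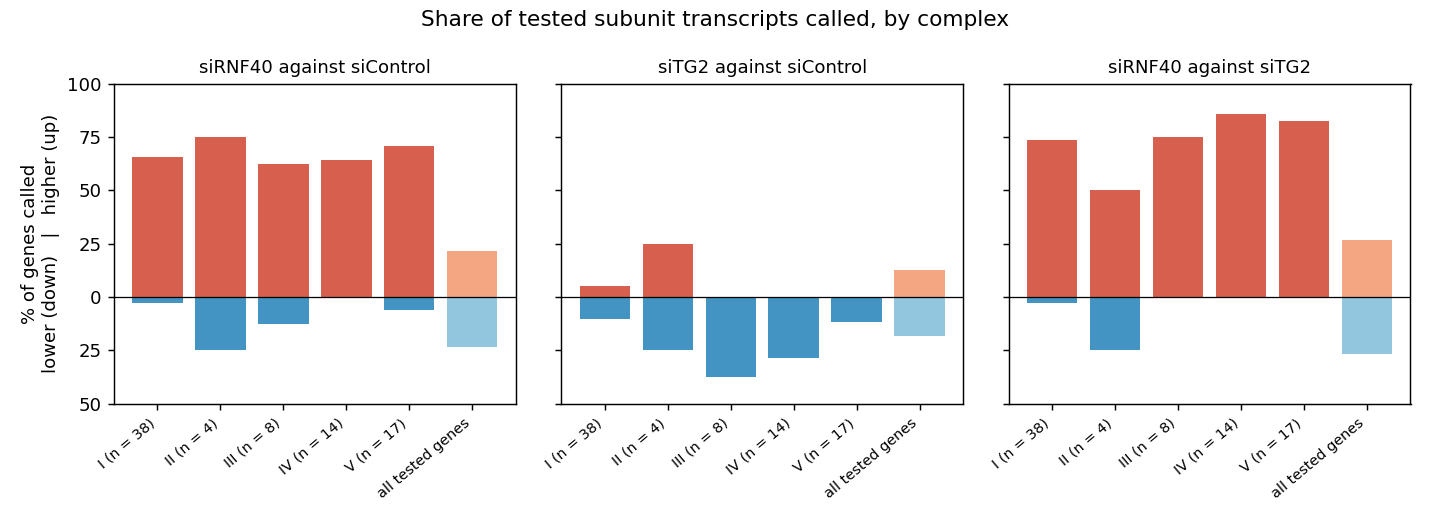
The bars show the percent of tested subunit transcripts called higher (upwards) or lower (downwards) in each of the 3 contrasts, by complex, with all tested genes as the lighter bars at the right. In siRNF40 against siControl the upward bars reach 62.5% to 75% for the 5 complexes and 21.7% for all tested genes.

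In each of the 5 complexes more members rose than fell in siRNF40 cells. Against siControl, 25 of 38 tested members of complex I rose and 1 fell (median log2 fold change 0.49), 3 of 4 rose and 1 fell in complex II (0.37), 5 of 8 rose and 1 fell in complex III (0.50), 9 of 14 rose and 0 fell in complex IV (0.64), and 12 of 17 rose and 1 fell in complex V (0.47). Complexes were assigned by symbol alone. The 1 that fell in complex V was ATP5SL, known as an assembly factor of complex I. ATP5S, now named DMAC2L, is also counted in complex V, without a call. NDUFA4, now known to belong to complex IV, is counted in complex I. COX6A1P2, a pseudogene name, is among the 9 that rose in complex IV. By library, the median log2 ratio of complex IV to its siControl mean was 0.79, 0.45 and 0.51 in siRNF40 libraries, -0.37, 0.03 and -0.11 in siTG2 libraries and -0.0024, 0.08 and -0.05 in siControl libraries. For complex II the ratios were 0.28, 0.45 and 0.39 in siRNF40 libraries, -0.17, -0.13 and -0.16 in siTG2 libraries and -0.06, 0.03 and -0.02 in siControl libraries. The siRNF40 libraries did not overlap the others for any complex, whereas siTG2 replicate 2 lay above siControl replicate 1 for complexes I, III, IV and V. In siTG2 against siControl, 2 members of complex I rose and 4 fell, 1 of complex II rose and 1 fell, and 3 of complex III, 4 of complex IV and 2 of complex V fell with 0 rising in each. These counts stand against 12.8% of all tested genes higher and 18.5% lower, and with equal totals they came to 5 lower members over the 5 complexes.

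**Figure D3:**
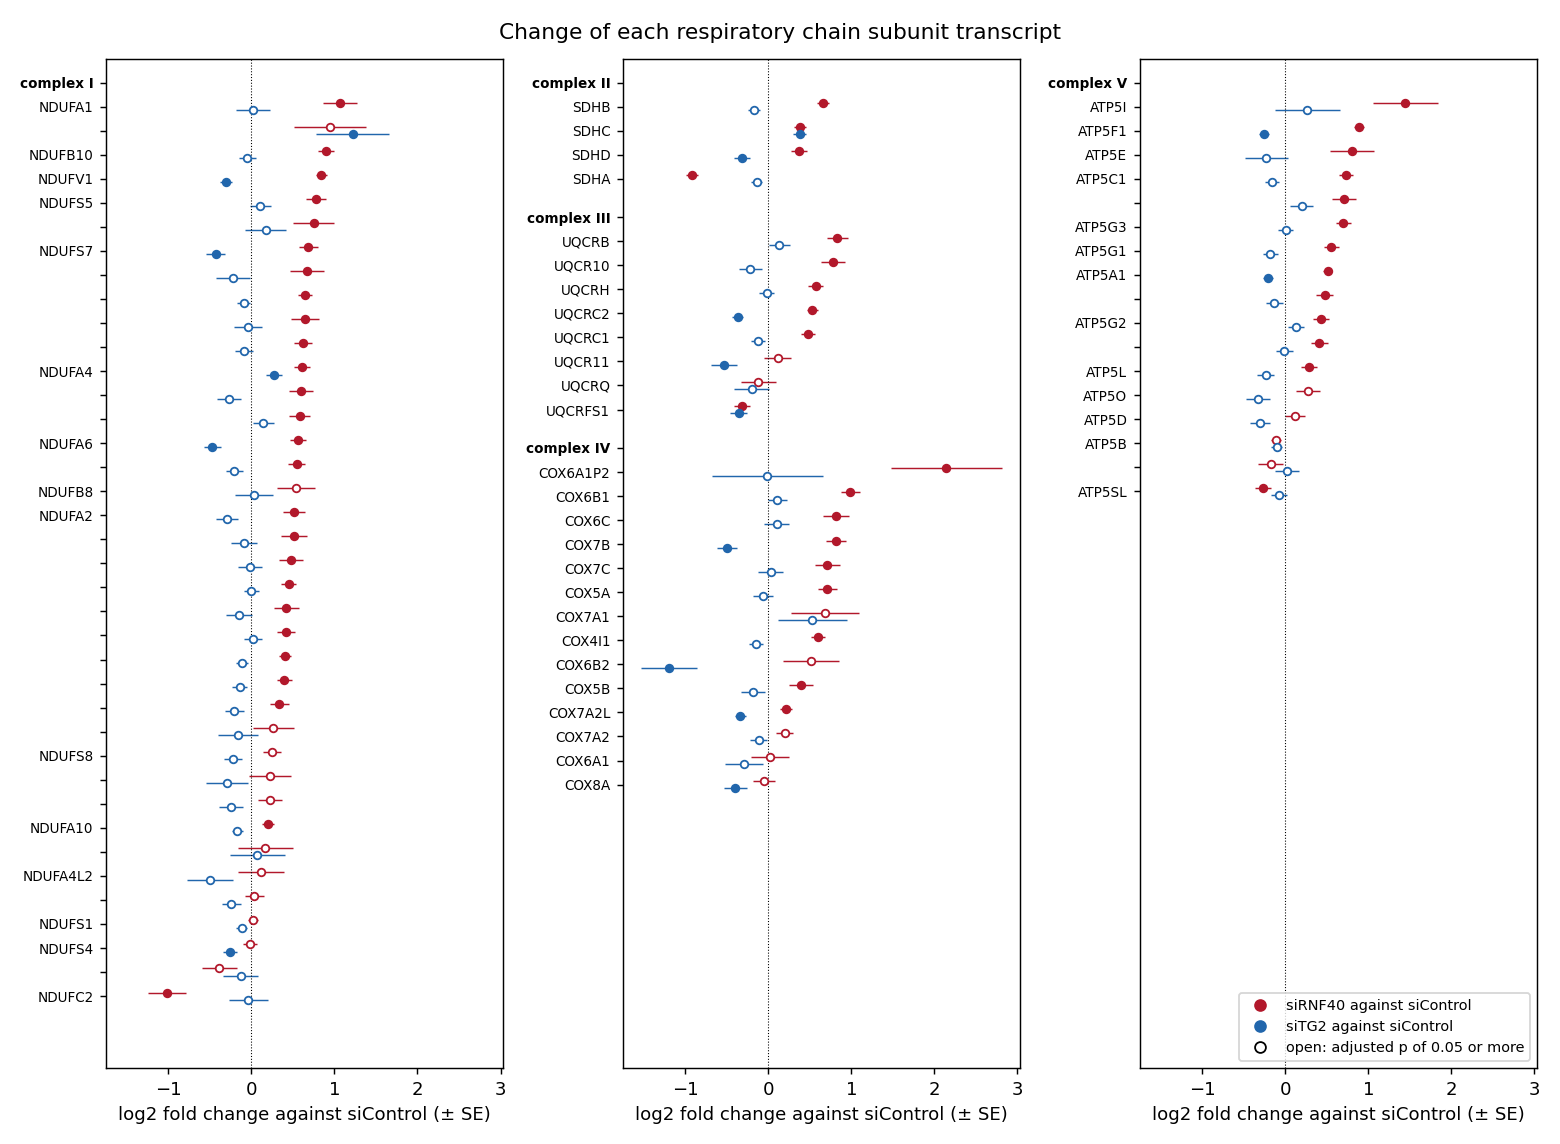
Each row is 1 of the 81 tested members, ordered within its complex by the change in siRNF40 and labelled for a subset of them; the horizontal axis is the limma log2 fold change against siControl with its SE, for siRNF40 and siTG2, filled where the adjusted p is under 0.05. Most siRNF40 points lie right of 0, from -1.01 (NDUFC2) to 2.15 (COX6A1P2), and most siTG2 points lie at or left of 0.

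Complex I takes electrons from NADH at the flavin of NDUFV1 and hands them over a chain of iron-sulfur clusters to ubiquinone. NDUFV1 (hg19 chr11:67374323-67380006) had 4706, 4631 and 5009 normalized counts in siRNF40 libraries, 2084, 2262 and 2127 in siTG2 libraries and 2561, 2676 and 2756 in siControl libraries. The 3 groups did not overlap, with siRNF40 highest and siTG2 lowest (log2 fold change against siControl 0.84 ± 0.07 SE in siRNF40, limma adjusted p = 8.6e-09, and -0.30 ± 0.07 in siTG2, adjusted p = 0.0018). The siTG2 call of NDUFV1 was not kept with equal totals (-0.16, limma adjusted p = 0.076) or quantile normalization (-0.18, limma adjusted p = 0.059). NDUFS7, which holds the last iron-sulfur cluster before ubiquinone, averaged 1392 ± 241 in siRNF40, 637 ± 54.0 in siTG2 and 857 ± 70.9 in siControl libraries (SD, n = 3), and was called in the same pair of directions (0.69 and -0.43). Its siTG2 call was lost without siControl replicate 2 (-0.36, adjusted p = 0.0501) and with equal totals (-0.28).

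NDUFS1, the large iron-sulfur subunit through which electrons leave the flavin, did not follow. It had 4556, 4985 and 4612 normalized counts in siRNF40 libraries, 4396, 4165 and 4322 in siTG2 libraries and 4654, 4594 and 4723 in siControl libraries. The siRNF40 libraries lay on both sides of the siControl libraries (log2 fold change 0.02 ± 0.06 SE, limma adjusted p = 0.84, with its sign turned by scaling to equal totals). Of the 7 nuclear-encoded core subunits, 3 rose and 0 fell in siRNF40, and of the 31 other members of complex I, 22 rose and 1 fell. NDUFS8, another iron-sulfur core subunit, missed the threshold at 0.25 (limma adjusted p = 0.062).

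Among the accessory subunits, which surround the core, NDUFA1 had 1720, 1176 and 828 normalized counts in siRNF40 libraries, 434, 804 and 537 in siTG2 libraries and 574, 525 and 600 in siControl libraries. The siRNF40 libraries were all above the siControl libraries and replicate 1 was the highest (log2 fold change 1.07 ± 0.21 SE, limma adjusted p = 0.00033). RNF113A overlaps it on the opposite strand, and whether reads were counted by strand is not given in the sources used here. NDUFB10 averaged 2628 ± 232 in siRNF40 and 1406 ± 52.0 in siControl libraries (SD, n = 3; log2 fold change 0.90), and NDUFS5 rose by 0.78. NDUFA6 averaged 2574 ± 203 in siRNF40, 1264 ± 191 in siTG2 and 1736 ± 48.5 in siControl libraries (SD, n = 3), and was called higher in siRNF40 (0.57) and lower in siTG2 (-0.47). RP1-257I20.14 overlaps NDUFA6 on the same strand, so shared reads cannot be placed. NDUFA4, numbered with complex I but now known to belong to complex IV, rose in both knockdowns, by 0.61 in siRNF40 and 0.27 in siTG2. Its siTG2 call was lost without siTG2 replicate 2 (0.18, adjusted p = 0.187), siTG2 replicate 3, siControl replicate 1 or siControl replicate 3.

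NDUFC2 was the member of complex I that fell in siRNF40. It had 55.1, 86.0 and 64.0 normalized counts in siRNF40 libraries, 115.9, 134 and 153 in siTG2 libraries and 118.2, 169 and 128 in siControl libraries. The siRNF40 libraries lay below all others (log2 fold change -1.01 ± 0.23 SE, limma adjusted p = 0.0014). Its gene overlaps the read-through gene NDUFC2-KCTD14 on the same strand, which was at 0 in all 9 libraries, so shared reads cannot be placed. NDUFS4, an accessory subunit near the NADH-binding arm, was called lower in siTG2 alone (-0.26, adjusted p = 0.032), a call lost without siTG2 replicate 1 (-0.19, adjusted p = 0.155), without siTG2 replicate 3 or any siControl library, and with equal totals (-0.12). NDUFA4L2, a paralog of NDUFA4 known to be induced by hypoxia, averaged 109.8 in siRNF40, 75.1 in siTG2 and 101.9 normalized counts in siControl libraries and passed neither test against siControl. NDUFA7, named after its values were seen, was called higher in siTG2 at a mean of 36.0 normalized counts in siTG2 against 15.2 in siControl libraries (1.22, adjusted p = 0.0402). That call was lost without siTG2 replicate 1 or 3 or siControl replicate 2 or 3, and its symbol has a second row in the table.

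Complex II, succinate dehydrogenase, also belongs to the citrate cycle and has 4 subunits, all encoded in the nucleus. Its catalytic and its iron-sulfur subunit went opposite ways in siRNF40 cells. SDHA (hg19 chr5:218356-256815), the flavoprotein that oxidizes succinate, had 1479, 1386 and 1459 normalized counts in siRNF40 libraries, 2450, 2521 and 2446 in siTG2 libraries and 2765, 2738 and 2667 in siControl libraries. The siRNF40 libraries lay far below both other groups (52.9% of the siControl mean; log2 fold change -0.92 ± 0.07 SE, limma adjusted p = 3.1e-09). In siTG2, SDHA missed the threshold (-0.14, adjusted p = 0.13). SDHA has 3 pseudogenes named after it in the table, among which reads could be split.

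SDHB (hg19 chr1:17345217-17380665), the iron-sulfur subunit, had 3031, 3208 and 3610 normalized counts in siRNF40 libraries, 1825, 1864 and 1829 in siTG2 libraries and 2002, 2147 and 2072 in siControl libraries. All siRNF40 libraries were above the rest (log2 fold change 0.66 ± 0.07 SE, limma adjusted p = 7.6e-07), and the siTG2 libraries were lower than siControl by a difference that missed the threshold (-0.17, adjusted p = 0.088). The membrane anchors SDHC and SDHD parted in siTG2 cells. SDHC averaged 2560 ± 37.1 in siRNF40, 2561 ± 191 in siTG2 and 1969 ± 152 in siControl libraries (SD, n = 3), and rose in both knockdowns, by 0.38 in each. SDHD averaged 2028 ± 227 in siRNF40, 1265 ± 122 in siTG2 and 1570 ± 113 in siControl libraries (SD, n = 3), and was called higher in siRNF40 (0.36) and lower in siTG2 (-0.31, a call lost without siTG2 replicate 1, siTG2 replicate 2 or siControl replicate 2). That siTG2 call was also lost with equal totals (-0.17) and quantile normalization (-0.20). Another row named SDHD overlaps the gene on the same strand, so shared reads cannot be placed.

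**Figure D4:**
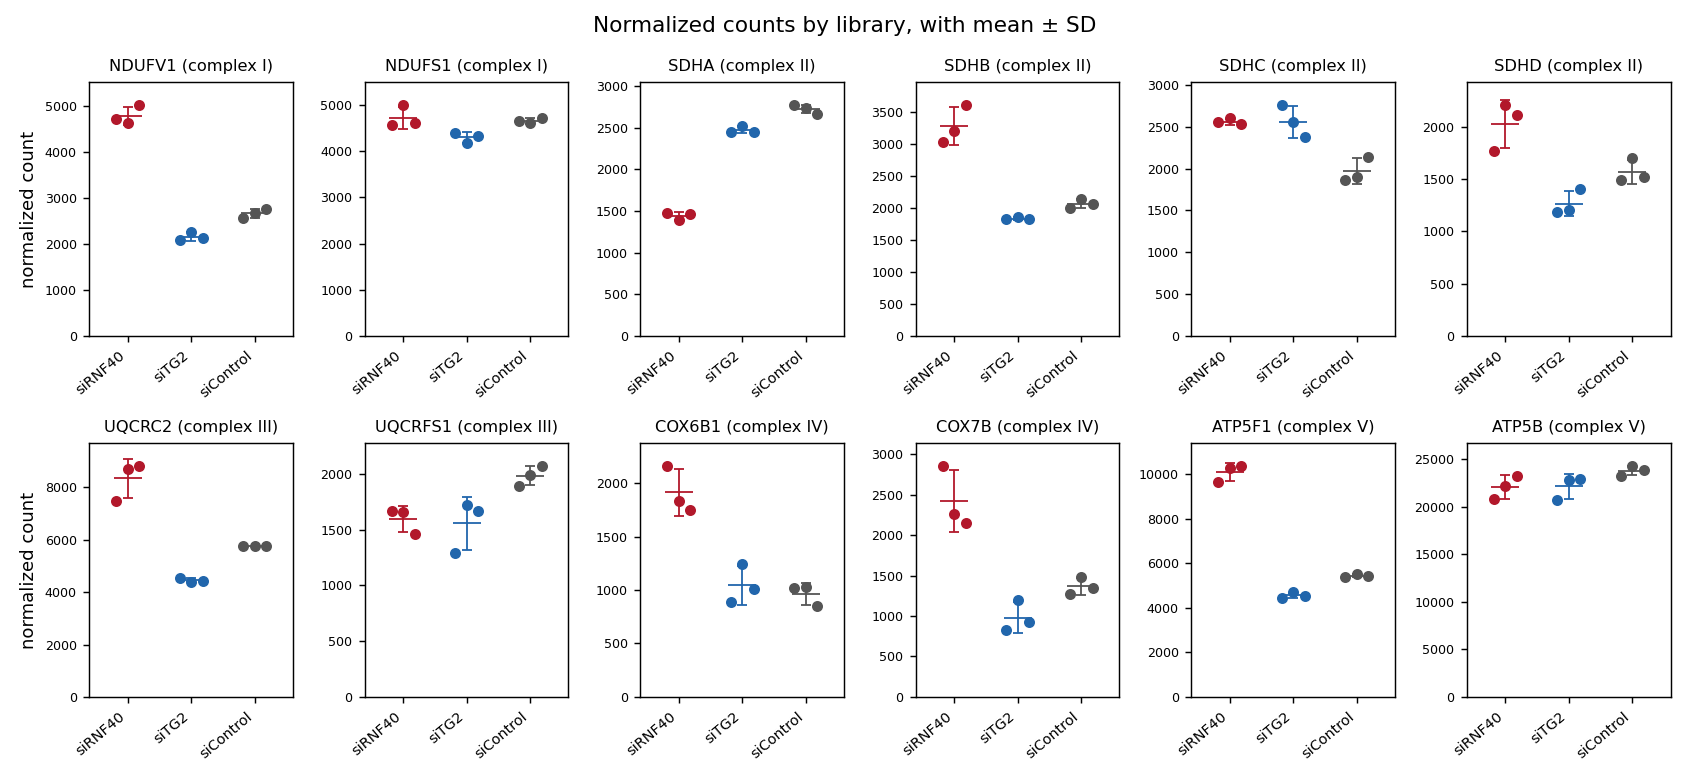
Normalized counts of 12 members are plotted by library, with the mean and SD of each group of 3; each vertical axis starts at 0. In siRNF40 cells SDHA lies below and SDHB, NDUFV1, UQCRC2, COX6B1, COX7B and ATP5F1 lie above the siControl libraries, whereas NDUFS1 and ATP5B overlap them or lie close to them.

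Complex III moves electrons from ubiquinol to cytochrome c. UQCRC2 (hg19 chr16:21963981-21994981), a core protein of its matrix side, had 7500, 8717 and 8814 normalized counts in siRNF40 libraries, 4541, 4397 and 4439 in siTG2 libraries and 5754, 5763 and 5781 in siControl libraries. The 3 groups were apart, siRNF40 highest and siTG2 lowest (0.53 ± 0.07 SE, limma adjusted p = 2.6e-06 in siRNF40, and -0.37 ± 0.07, adjusted p = 0.00027 in siTG2). Its partner UQCRC1 rose in siRNF40 (0.48) and missed the threshold in siTG2 (-0.12, a sign that equal totals and quantile normalization turn). The ubiquinone-binding subunit UQCRB (0.83), the small subunit UQCR10 (0.77) and the hinge protein UQCRH (0.57) rose in siRNF40.

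UQCRFS1, the Rieske iron-sulfur protein that carries the electron transfer step of complex III, fell in both knockdowns. It had 1668, 1656 and 1462 normalized counts in siRNF40 libraries, 1287, 1722 and 1670 in siTG2 libraries and 1895, 1988 and 2070 in siControl libraries. All siControl libraries were above all knockdown libraries (-0.32 ± 0.10 SE, limma adjusted p = 0.014 in siRNF40, and -0.36 ± 0.10, adjusted p = 0.0093 in siTG2). The siRNF40 call was lost without siControl replicate 3 (-0.29, adjusted p = 0.057), and the siTG2 call without siTG2 replicate 1 (-0.23, adjusted p = 0.069) and with equal totals (-0.22). UQCR11, a small subunit, was called lower in siTG2 alone (-0.53, adjusted p = 0.015), a call lost without siTG2 replicate 1 or 3 or siControl replicate 2 or 3. It was also lost with equal totals (-0.39, limma adjusted p = 0.066). Another row named UQCR11 overlaps the gene on the same strand, so shared reads cannot be placed. UQCRQ averaged 656 ± 184 in siRNF40, 638 ± 242 in siTG2 and 700.4 ± 93.7 in siControl libraries (SD, n = 3) and passed neither test against siControl.

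Complex IV, cytochrome c oxidase, passes the electrons to oxygen. COX6B1 (hg19 chr19:36139125-36149763), which lies on the side facing cytochrome c, had 2161, 1837 and 1748 normalized counts in siRNF40 libraries, 886, 1245 and 1010 in siTG2 libraries and 1016, 1028 and 848 in siControl libraries. The siRNF40 libraries were all above the others, and the siTG2 and siControl libraries overlapped (0.99 ± 0.12 SE in siRNF40, limma adjusted p = 1.3e-06). COX7B (hg19 chrX:77154935-77162870) had 2853, 2261 and 2149 in siRNF40 libraries, 824, 1195 and 922 in siTG2 libraries and 1272, 1478 and 1349 in siControl libraries. The groups did not overlap (0.82 ± 0.12 SE, limma adjusted p = 2.1e-05 in siRNF40, and -0.49 ± 0.12, adjusted p = 0.0043 in siTG2).

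COX4I1, a regulatory subunit, averaged 12086 ± 600 in siRNF40 and 7970 ± 374 in siControl libraries (SD, n = 3; log2 fold change 0.60). COX5A rose by 0.71, and COX5B by 0.40 in siRNF40. The COX5B call was lost without siRNF40 replicate 1 (0.23, adjusted p = 0.212), without siRNF40 replicate 2 or any siControl library, and with DESeq2. COX6C (0.82) and COX7C (0.71) rose too, and 17 pseudogenes carry the name of COX6C, so its reads could be split. COX7A2L, a paralog that tethers complexes III and IV, was called higher in siRNF40 (0.21, lost without siRNF40 replicate 1 or siControl replicate 3) and lower in siTG2 (-0.34). COX8A, the ubiquitous isoform of its subunit, was lower in siTG2 (-0.40, adjusted p = 0.032), lost without siTG2 replicate 1 (-0.25, adjusted p = 0.185), siTG2 replicate 3 or siControl replicate 1 or 2, and with equal totals (-0.25). AP000721.4 overlaps COX8A on the same strand, so shared reads cannot be placed.

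Isoforms of complex IV differed in level. COX6A1, the isoform of most tissues, had 605, 1254 and 1665 normalized counts in siRNF40 libraries, 745, 877 and 992 in siTG2 libraries and 1008, 1180 and 1012 in siControl libraries. Its siRNF40 libraries were wide apart with replicate 1 lowest, and it passed the test only without that library (0.44, limma adjusted p = 0.013). AL021546.6 overlaps COX6A1 on the same strand, so shared reads cannot be placed. The row named COX6A1P2, a pseudogene name listed as protein-coding and picked out after its values were seen, had 41.8, 40.7 and 10.7 in siRNF40, 6.6, 3.5 and 5.9 in siTG2 and 4.4, 3.8 and 8.3 in siControl libraries. Its call (2.15 ± 0.67 SE, limma adjusted p = 0.013) was lost without siRNF40 replicate 1 or 2, and reads of COX6A1 could be placed on it, given its name. COX7A2, the ubiquitous form, missed the threshold (0.20), and the muscle form COX7A1 averaged 38.3 ± 15.5 in siRNF40 and 22.9 ± 6.2 in siControl libraries (SD, n = 3) and passed neither test against siControl.

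COX6B2, known as the testis form of COX6B, averaged 79.4 ± 34.9 in siRNF40, 22.5 ± 3.9 in siTG2 and 52.6 ± 6.2 in siControl libraries (SD, n = 3), and was called lower in siTG2 (-1.19, adjusted p = 0.011). CTD-2105E13.6 overlaps COX6B2 on the same strand, so shared reads cannot be placed. The heart and muscle form COX6A2, the lung form COX4I2 and the testis forms COX7B2 and COX8C did not reach the level tested. COX7B2 was at 0 in all 9 libraries, COX4I2 reached at most 1.1, COX6A2 3.1 and COX8C 14.3 normalized counts in any library. The other members below the level tested were ATP5EP2, ATP5J2-PTCD1, ATP5L2 and NDUFC2-KCTD14.

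Complex V makes ATP in a catalytic head that a central stalk turns against and a peripheral stalk holds. ATP5F1 (hg19 chr1:111991486-112005395), the b subunit of the peripheral stalk, had 9664, 10301 and 10375 normalized counts in siRNF40 libraries, 4458, 4695 and 4545 in siTG2 libraries and 5395, 5535 and 5430 in siControl libraries. The 3 groups were apart, and this was the smallest adjusted p of any member in siRNF40 (0.89 ± 0.06 SE, limma adjusted p = 6.9e-10), with -0.26 ± 0.06 in siTG2 (adjusted p = 0.0024). Its siTG2 call was not kept with equal totals (-0.11, limma adjusted p = 0.154) or quantile normalization (-0.09, limma adjusted p = 0.278). WDR77 overlaps ATP5F1 on the opposite strand, and 7 pseudogenes carry its name. The catalytic beta subunit ATP5B had 20785, 22215 and 23273 in siRNF40 libraries, 20676, 22821 and 22977 in siTG2 libraries and 23288, 24290 and 23849 in siControl libraries. All knockdown libraries of ATP5B lay below the siControl libraries without passing the test (-0.11, adjusted p = 0.16 in siRNF40), while quantile normalization took the siRNF40 value to -0.34 (adjusted p = 0.00011).

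ATP5A1, the alpha subunit of the same catalytic head, averaged 14934 ± 574 in siRNF40, 9075 ± 236 in siTG2 and 10476 ± 192 in siControl libraries (SD, n = 3), called higher in siRNF40 (0.51) and lower in siTG2 (-0.21). The siTG2 call was not kept with equal totals. In the central stalk, the gamma subunit ATP5C1 rose in siRNF40 (0.73, limma adjusted p = 7.3e-07). The epsilon subunit ATP5E had 4573, 2172 and 1614 in siRNF40 libraries, 868, 1791 and 1202 in siTG2 libraries and 1447, 1431 and 1458 in siControl libraries, and siRNF40 replicate 1 stood far above the other libraries. Its call in siRNF40 (0.80, adjusted p = 0.017) was lost without that library (0.37, adjusted p = 0.14) and with DESeq2. ATP5I, a small membrane subunit, rose in siRNF40 (1.45, adjusted p = 0.0054), a call lost without siRNF40 replicate 1 (1.00, adjusted p = 0.051). TUBB1 overlaps ATP5E, and MYL5 overlaps ATP5I, on the opposite strand.

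The 3 genes of the c-ring, the rotor in the membrane, encode the same mature protein, and each rose in siRNF40: ATP5G1 by 0.55, ATP5G2 by 0.43 and ATP5G3 by 0.70. ATP5L, a small membrane subunit, rose by 0.28, a call lost without siRNF40 replicate 2 or siControl replicate 1 or 2, and ATP5O (0.27, adjusted p = 0.13) did not pass. In siTG2, ATP5D, the delta subunit, came close to the threshold (-0.31, adjusted p = 0.053) and passed without siRNF40 replicate 2 or 3, siTG2 replicate 2 or siControl replicate 3. ATP5SL, whose symbol follows the rule although its protein is known as an assembly factor of complex I, fell in siRNF40 (-0.27, adjusted p = 0.026), lost without siRNF40 replicate 1 or siControl replicate 1 or 3.

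Set side by side, 9 members were called higher in siRNF40 and lower in siTG2, each against the same siControl libraries: NDUFA6, NDUFS7, NDUFV1, SDHD, UQCRC2, COX7A2L, COX7B, ATP5A1 and ATP5F1. With libraries scaled to equal totals, 4 of these 9 were still called lower in siTG2 (NDUFA6, UQCRC2, COX7A2L and COX7B), and 5 were not. NDUFA4 and SDHC were called higher in both, and UQCRFS1 was called lower in both. A further 43 members were called higher in siRNF40 without a call in siTG2, and 18 members had no call in either. Taken singly, 21.7% of all tested genes were called higher in siRNF40 and 18.5% lower in siTG2. The share of all tested genes with each pair of calls is not given here, so whether these counts are unusual cannot be told.

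For a rough comparison between genes, levels were divided by transcript length, taken here as the median length of a gene's complete coding transcripts in GENCODE 29. The length that the cells express is not known, and reads lost to overlapping rows or pseudogenes are not corrected. SDHC, for instance, was divided by 460 bases, while its principal transcript has a 3′ UTR of 12907 bases. In siControl libraries, the 80 members with a GENCODE 29 length had a median of 1477 normalized counts per kb, against 330.4 over 13333 tested protein-coding genes. The medians by complex were 1072 for I, 1811 for II, 1679 for III, 2375 for IV and 2063 for V. ATP5B had the highest level per kb (12947), followed by COX4I1 (10038), UQCRB (6882) and UQCRH (5675). SDHA lay at 684 ± 23.1 per kb in siRNF40, 1173 ± 19.9 in siTG2 and 1292 ± 24.0 in siControl libraries (SD, n = 3). The partner SDHB lay at 2847 ± 257 per kb in siRNF40, 1595 ± 18.5 in siTG2 and 1799 ± 62.7 in siControl libraries (SD, n = 3).

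Members are short genes and short transcripts. Their median length was 757 bases, against 2559 over tested protein-coding genes, and their median genomic span was 12.6 kb, against 32.7 kb. Across members, span and log2 fold change in siRNF40 had a Spearman rho of -0.22 (80 genes), and across 13333 tested protein-coding genes of -0.24, as a description of genes that share libraries. In siTG2 the rho for span was 0.13 over members and 0.03 over tested protein-coding genes. For transcript length it was -0.16 over members and -0.22 over tested protein-coding genes in siRNF40, and -0.22 and 0.06 in siTG2. The spread within groups also followed length. The difference between siTG2 replicate 2 and the other siTG2 libraries had a median of 0.33 on the log2 scale over the 40 shorter members and 0.19 over the 40 longer ones, and its Spearman rho with length was -0.40 over members and -0.34 over tested protein-coding genes. For siRNF40 replicate 1 against the other siRNF40 libraries, the medians were 0.21 in the shorter and 0.06 in the longer members, with a rho of -0.29 over members and 0.03 over tested protein-coding genes. The part of transcript length in the differences between groups was not tested.

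Promoters of RefSeq (GRCh38.p14) were searched for core words of 3 factors known to act on these genes: GCATGCGC for NRF1, CCGGAAG for ETS factors such as GABP and AAGATGGC for YY1, on both strands, in 300 bases around the gene start. The ETS and YY1 words can overlap, since AAG ends the first and begins the second. Of the 64 tested members with an entry, 21.9% held the NRF1 word, 31.2% the ETS word and 18.8% the YY1 word. Over 10781 tested protein-coding genes the shares were 5.25%, 18.6% and 5.22%, and over all 35116 promoters listed by RefSeq they were 3.05%, 10.3% and 2.89%. Of the 43 members that rose in siRNF40, 27.9%, 32.6% and 16.3% held the NRF1, ETS and YY1 word, and of the 21 tested members that did not, 9.52%, 28.6% and 23.8%. A match is a description of the letters and not of binding.

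The promoters of 5 members are shown 5′ to 3′ along the gene's strand with the matched words in capitals. SDHB (chr1:17053983-17054282, minus strand) and ATP5J (chr21:25735005-25735304, minus strand), a peripheral stalk subunit that rose by 0.41 in siRNF40, hold all 3 words. COX6B1 (chr19:35648073-35648372, plus strand) holds the ETS word on the opposite strand, and ATP5F1 (chr1:111449214-111449513, plus strand) the YY1 word on the opposite strand. SDHA (chr5:218070-218369, plus strand), the member of complex II that fell, holds none of the 3 exact words. Variants of the words were not searched, so a promoter without a match can still hold them.
SDHB: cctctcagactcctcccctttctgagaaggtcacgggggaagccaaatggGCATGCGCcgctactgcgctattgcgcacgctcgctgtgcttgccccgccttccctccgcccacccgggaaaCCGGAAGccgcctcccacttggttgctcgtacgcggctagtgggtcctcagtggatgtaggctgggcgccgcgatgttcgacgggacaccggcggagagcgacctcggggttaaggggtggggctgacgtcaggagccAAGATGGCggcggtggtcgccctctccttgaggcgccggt
ATP5J: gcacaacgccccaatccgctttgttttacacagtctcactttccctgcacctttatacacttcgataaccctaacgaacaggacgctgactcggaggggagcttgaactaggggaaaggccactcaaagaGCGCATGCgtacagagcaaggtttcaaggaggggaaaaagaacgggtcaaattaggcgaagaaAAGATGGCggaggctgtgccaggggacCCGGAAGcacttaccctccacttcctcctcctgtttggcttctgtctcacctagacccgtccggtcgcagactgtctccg
COX6B1: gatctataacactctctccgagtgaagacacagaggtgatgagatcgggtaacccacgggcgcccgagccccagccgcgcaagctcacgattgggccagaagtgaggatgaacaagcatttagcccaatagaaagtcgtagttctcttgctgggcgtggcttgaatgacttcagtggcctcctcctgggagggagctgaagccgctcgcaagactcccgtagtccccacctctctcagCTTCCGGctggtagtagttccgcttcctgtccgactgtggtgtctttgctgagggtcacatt
ATP5F1: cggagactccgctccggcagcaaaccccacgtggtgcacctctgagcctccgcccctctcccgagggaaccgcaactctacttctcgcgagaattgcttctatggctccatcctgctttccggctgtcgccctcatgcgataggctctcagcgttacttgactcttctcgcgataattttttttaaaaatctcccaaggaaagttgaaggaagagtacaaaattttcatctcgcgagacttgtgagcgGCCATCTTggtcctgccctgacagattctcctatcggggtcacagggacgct
SDHA: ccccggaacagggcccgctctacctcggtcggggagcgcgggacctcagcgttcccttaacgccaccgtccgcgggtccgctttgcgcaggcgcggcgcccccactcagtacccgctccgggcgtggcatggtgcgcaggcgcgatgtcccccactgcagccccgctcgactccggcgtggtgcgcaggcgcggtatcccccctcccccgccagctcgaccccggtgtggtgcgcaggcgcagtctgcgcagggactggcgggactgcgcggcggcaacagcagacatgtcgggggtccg

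A further word was read in 3′ UTRs, since earlier work on this comparison had singled out GTCTTCA among all words of its length by the fall of genes that carry it in siRNF40 cells. It was thus chosen on these data, and its presence is a description. In the 3′ UTR of the longest GENCODE 29 transcript of a gene's principal protein, 7 of 80 tested members held it (8.75%), against 12.6% of 13333 tested protein-coding genes. It was in 3 of the 4 members that fell in siRNF40 (SDHA, NDUFC2 and ATP5SL), in 3 of the 53 that rose and have a transcript (NDUFV3, SDHC and UQCRH) and in 1 of the 23 without a call (ATP5S). The sites are shown 5′ to 3′ with the word in capitals, those of the members that fell before those that rose; SDHC has 3 sites, of which 1 is shown, in a 3′ UTR of 12907 bases, and SDHA has its site in one of 280 bases.
SDHA: tcataactGTCTTCAtacgcttc
NDUFC2: aGTCTTCAaaatgctt
ATP5SL: ttccatttGTCTTCActcaacgt
NDUFV3: cttccaccGTCTTCActgcatcc
SDHC: ttttaacaGTCTTCAttcagggt
UQCRH: tcaccccaGTCTTCAtcatctgg

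Other genes of oxidative metabolism were read from lists outside the naming rule. Of 9 further nuclear subunits and carriers, 8 rose and 0 fell in siRNF40, and 0 rose and 2 fell in siTG2. Of all tested genes, 21.7% were called higher and 23.6% lower in siRNF40, and 12.8% and 18.5% in siTG2, so the 2 that fell were near that share. Among the 8 that rose in siRNF40 were NDUFAB1, the acyl carrier subunit of complex I (0.68), and USMG5, a small subunit of complex V (0.93). CYCS, cytochrome c itself, averaged 15849 ± 1319 in siRNF40, 9496 ± 407 in siTG2 and 11161 ± 117 in siControl libraries (SD, n = 3). CYCS fell in siTG2 by 0.23 on the log2 scale (limma adjusted p = 0.0094; -0.09 with equal totals and -0.04 with quantile normalization, neither called). The other gene that fell in siTG2 was CYC1, cytochrome c1 of complex III (-0.25, adjusted p = 0.035), a call lost without siTG2 replicate 1 (-0.14, adjusted p = 0.224), siTG2 replicate 3 or siControl replicate 1 or 2, with edgeR and without the filter. With equal totals 0 of the 9 were called lower in siTG2. The 13 subunits encoded by mitochondrial DNA are listed at 0 in all 9 libraries, so no value can be given for them.

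Assembly factors, which build the complexes without staying in them, were read by complex. In siRNF40, 7 of 16 assembly factors of complex I rose and 2 fell, 2 of 4 of complex II rose and 0 fell, 3 of 6 of complex III rose and 1 fell, 11 of 24 of complex IV rose and 4 fell, and 2 of 2 of complex V rose. Of all tested genes, 21.7% were called higher and 23.6% lower in siRNF40. NDUFAF2 (0.73), SDHAF1 (0.90), LYRM7 (0.71) and COX14 (0.85) rose, whereas NUBPL, which loads iron-sulfur clusters into complex I, fell (-0.92), as did NDUFAF3 (-0.76). Without each library in turn, 3 to 7 factors of complex I (3 without siControl replicate 2, 4 without siControl replicate 1) and 7 to 12 of complex IV (7 without siRNF40 replicate 1) rose, and with equal totals 4 of complex I rose. Among factors of complex IV, the call of PET117 (1.03) was lost without siRNF40 replicate 1 or 2 or siControl replicate 1, and that of COX18 (-0.33) without siRNF40 replicate 2 or 3 or any siControl library. In siTG2, 0 rose and 4 fell, 0 rose and 1 fell, 0 rose and 3 fell, 1 rose and 5 fell, and 0 rose and 1 fell in the lists of complexes I, II, III, IV and V, where 12.8% of all tested genes were called higher and 18.5% lower. Without siTG2 replicate 3, 2 factors of complex I fell. With equal totals, 1 factor of complex III fell, the calls of BCS1L (-0.27, adjusted p = 0.051) and UQCC1 (-0.13) being lost, and 4 of complex IV rose and 3 fell. ATPAF1, which helps the beta subunit into the catalytic head, averaged 689 ± 81.7 in siTG2 and 1525 ± 38.4 in siControl libraries (SD, n = 3; log2 fold change -1.15, limma adjusted p = 1.8e-08). Of 13 genes of coenzyme Q synthesis, 6 rose and 3 fell in siRNF40 and 3 rose and 2 fell in siTG2. Of all tested genes, 21.7% were called higher and 23.6% lower in siRNF40, and 12.8% and 18.5% in siTG2. The counts of coenzyme Q genes that fell were thus near those of all tested genes. Without siControl replicate 1, 0 rose in siTG2, the calls of COQ10A (0.47, adjusted p = 0.0616), ADCK4 (0.34) and COQ5 (0.27) being lost, and 1 fell.

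Of 17 regulators of mitochondrial biogenesis tested, 8 rose and 2 fell in siRNF40, and 0 rose and 8 fell in siTG2, of which 4 were called lower without siControl replicate 2, with quantile normalization or with equal totals. Of all tested genes, 21.7% were called higher and 23.6% lower in siRNF40, and 12.8% and 18.5% in siTG2. The coactivator PPARGC1B averaged 741 ± 88.9 in siRNF40 and 370 ± 6.6 in siControl libraries (SD, n = 3; log2 fold change 1.00, limma adjusted p = 4.2e-06). ESRRA, the nuclear receptor it acts with, averaged 2847 in siRNF40, 1154 in siTG2 and 1523 normalized counts in siControl libraries, and was called higher in siRNF40 (0.90) and lower in siTG2 (-0.40). GABPA, the DNA-binding part of GABP, and YY1 fell in siRNF40 (-0.44 and -0.27). The YY1 call was lost without siControl replicate 1 (-0.25, adjusted p = 0.0537) or siControl replicate 2, and with quantile normalization. The factor NRF1 fell in siTG2 (-0.40, limma adjusted p = 0.0015). POLRMT, the RNA polymerase of mitochondria, fell in siTG2 (-0.35).

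Around the chain, 10 of 18 genes of the citrate cycle and pyruvate dehydrogenase rose and 7 fell in siRNF40, and 1 rose and 6 fell in siTG2. For this list and the next, the shares of all tested genes were 21.7% higher and 23.6% lower in siRNF40, and 12.8% and 18.5% in siTG2. SUCLA2, a subunit of succinyl-CoA synthetase, averaged 519 ± 45.3 in siRNF40 and 1611 ± 87.0 in siControl libraries (SD, n = 3; log2 fold change -1.63, limma adjusted p = 6.0e-11), and its partner SUCLG1 rose by 0.87. DLST, a subunit of the 2-oxoglutarate dehydrogenase, fell (-1.18). Of 17 mitochondrial carriers and import genes, 11 rose and 1 fell in siRNF40, and 0 rose and 9 fell in siTG2 (2 rose and 5 fell with equal totals). The gene that fell in siRNF40 was VDAC3, a channel of the outer membrane (-0.22), a call lost without siRNF40 replicate 1 (-0.14, adjusted p = 0.170) or siControl replicate 1 or 2. In siTG2 the import subunit TIMM50 averaged 768 normalized counts, against 1480.3 in siControl libraries (-0.95).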

How the data were processed

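Polyadenylated RNA of 9 HCT116 libraries was sequenced, 3 each of siRNF40, siTG2 and siControl, 48 h after transfection. Per the submitters' processing notes, reads were processed with Trim Galore 0.4.1, STAR 2.7.0, HTSeq 0.12.4 and DESeq2, and hg19 and hg38 are both named. Whether counting used strand is not given in the sources used here. Values in the authors' table are a signal, the reads of a gene over the size factor of the library. Its NC columns were read as siControl because their means equal the control means in the deposited comparisons. All values (100%) are whole reads within 0.001 after division by the value of 1 read. The authors also deposited comparison tables with log2 fold changes, p-values, adjusted p-values and a Wald statistic (a score, unused here).

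Genes were tested with limma 3.58.1, with its trend option (R 4.3.3), on log2 of the value plus 1, with 3 group means over all 9 libraries, for 17663 genes with a mean of at least 10, two-sided, with Benjamini-Hochberg adjustment. On the recovered reads edgeR 4.0.16 (quasi-likelihood) and DESeq2 1.42.0 were run as alternatives. The other alternatives were pseudocounts, filters, scalings, fewer libraries and a replicate block. The tests were tested on simulated data. Same-numbered replicates of different groups had correlated deviations between -0.075 and 0.081, so numbers were not taken as pairs. Members, gene lists and the naming rule were chosen with earlier results of these data known. Named were set core subunits and isoforms, per complex, contrast and direction the called members of largest change (at most 4, mean of at least 50), members called in opposite directions, up to 2 uncalled members per complex with the smallest adjusted p and, from other lists, up to 3 called genes per direction. NDUFA7, ATP5J, COX6A1P2 and RN7SL2 were named after their values were seen, as were the 5 promoters shown. Sequences are from RefSeq (GRCh38.p14, 68 of 89 members with a promoter) and GENCODE 29, and table coordinates are hg19. NDUFV3 and ATP5S are named for a word in their 3′ UTR.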

Additional observations from a re-analysis of the deposited data

Results flagged for a closer look

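The effects of the 2 knockdowns differed by the direct contrast of siRNF40 with siTG2 for most members: 62 were higher and 2 lower in siRNF40 (limma, adjusted p under 0.05 over all tested genes). In that contrast 26.6% of all tested genes were called higher and 26.6% lower. For 9 members the knockdowns were also called in opposite directions against siControl, and the share of all tested genes called so is not given here. The log2 fold change of siRNF40 against siTG2 was 1.15 for NDUFV1, 1.03 for NDUFA6, 1.12 for NDUFS7, 0.68 for SDHD, 0.90 for UQCRC2, 0.55 for COX7A2L, 1.31 for COX7B, 0.72 for ATP5A1 and 1.15 for ATP5F1. Groups of 3 libraries were not tested for single outlying libraries.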

How the results depend on the processing

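The count of members higher in siRNF40 than in siControl lay between 51 and 56 over the other tests, pseudocounts, filters and scalings, and between 44 and 55 without each library in turn, with 2 to 4 lower and 47 to 59 called in all. In siTG2 against siControl the counts depended more on the choice. No filter on low values gave 1 member higher, quantile normalization gave 8 lower and 10 called in all, and equal totals (of all or of nuclear genes, which are the same here) gave 5 lower and 9 called in all. Without each library in turn 1 to 3 members were higher, 9 to 22 lower and 11 to 24 called. In siRNF40 against siTG2, quantile normalization gave 4 and equal totals 5 members lower, and equal totals gave a median of 0.41. Under every alternative, 0 called members changed sign. In siTG2, the sign of 21 of the 81 members differed with equal totals and of 16 with quantile normalization, none of them called in either fit. Among members named by the rule, values uncalled in the main fit changed sign for COX4I1 in siTG2 (0.042 with quantile normalization), UQCRC1 in siTG2 (0.033 with quantile normalization, 0.019 with equal totals) and SDHA in siTG2 (0.0037 with equal totals). In siRNF40 they did so for COX6A1 (-0.010 with equal totals, -0.29 to 0.44 without each library) and NDUFS1 (-0.015 with equal totals, -0.023 to 0.042 without each library). They also did so without each library for COX8A (-0.17 to 0.10), NDUFA4L2 (-0.0078 to 0.25) and UQCRQ (-0.34 to 0.037). Of these, the COX6A1 value of 0.44, without siRNF40 replicate 1, was itself called (limma adjusted p = 0.013). The cause was not tested. A fit with a replicate block called the same 58, 17 and 64 members in the 3 contrasts, while in siRNF40 it called 4 assembly factors of complex I higher in place of 7 and lost COX18 of the complex IV list (-0.33, adjusted p = 0.0529). Depth limits most the members of low counts, such as NDUFA7 and COX6A1P2.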
